A study of Drosophila melanogaster with 15 samples.

Results

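The regions described here are stretches of the fly genome where RNA:DNA hybrids were called in 2–3 h embryos and in neither of the other sample types. In them no RefSeq transcript runs on the strand of the call. They were chosen by joining all peaks of the 3 deposited lists that share at least 1 bp on the same strand, and by keeping the joined regions that hold peaks of 2–3 h embryos alone and overlap no RefSeq transcript on their own strand. Of 51900 joined regions, 2228 qualified, which are called members below. Over a RefSeq transcript of the other strand lay 1015 of them, named antisense here, and over no RefSeq transcript at all lay 1213, named intergenic. In the Ensembl annotation 80 antisense and 155 intergenic members did overlap a transcript on their own strand. For 79 and 149 of these the transcript was annotated as a transposable element. Hybrids were mapped by ssDRIP-seq, in which an antibody against RNA:DNA hybrids pulls down sheared DNA and the strand of each recovered fragment is kept. The samples were wild-type Oregon R embryos of 2–3 h, Oregon R embryos of 14–16 h, collected from population cages kept at a constant temperature, and S2 cells, an established embryonic cell line. Each sample type had 2 ssDRIP replicates, 2 inputs and 1 ssDRIP sample treated with RNase H, which degrades RNA paired to DNA. Each list pools the replicates of its sample type and gives position, width and strand of a peak without height or read count, so no value below has a replicate error, and the depth behind the peaks is unknown. Shares carry 95% Wilson intervals that cover counting error only, and regions are not replicates.

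An R-loop forms when an RNA pairs with one strand of the DNA and leaves the other strand single. In flies the embryo lives at first on maternal RNA, and zygotic transcription begins broadly around the time of the early collection, opened by pioneer factors such as Zelda and GAGA factor that bind short DNA words. Antisense and intergenic transcripts are known from enhancers, promoters, unannotated genes and transposons, and the repeated DNA around centromeres and on the Y chromosome is packed into heterochromatin during the same hours. Sense and antisense are read here from the strand given in the lists, and which of both strands carried the RNA was not tested.

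The sequences below show what the members are made of. They come from the RefSeq genome of the dm6 build, are written 5′ to 3′ on the listed strand of the member, and carry the feature of interest in capitals. The first set holds the longest polyadenine tract and the longest polypurine and polypyrimidine tract of either class in the central 300 bp of a member, where a tract is a run of 10 or more A (polyadenine) or T (polythymine), or of 15 or more purines or pyrimidines with both bases present. The capitals mark the tract, of 35, 38, 48, 40 and 26 bases in the order printed.
kirre intron, polyadenine, antisense member, chrX:2850676-2850795 minus strand: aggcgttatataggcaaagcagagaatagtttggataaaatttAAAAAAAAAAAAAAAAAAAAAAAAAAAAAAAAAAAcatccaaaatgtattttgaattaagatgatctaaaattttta
CG43759 intron, polypurine, antisense member, chrX:19003423-19003542 minus strand: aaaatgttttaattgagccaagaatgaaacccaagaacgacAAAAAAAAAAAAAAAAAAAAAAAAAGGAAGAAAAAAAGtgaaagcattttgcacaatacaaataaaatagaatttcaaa
Fas2 intron, polypyrimidine, antisense member, chrX:4190615-4190734 plus strand: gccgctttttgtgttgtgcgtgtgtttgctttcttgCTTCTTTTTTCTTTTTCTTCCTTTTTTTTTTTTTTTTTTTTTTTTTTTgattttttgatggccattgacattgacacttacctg
oc upstream, polypurine, intergenic member, chrX:8657201-8657320 plus strand: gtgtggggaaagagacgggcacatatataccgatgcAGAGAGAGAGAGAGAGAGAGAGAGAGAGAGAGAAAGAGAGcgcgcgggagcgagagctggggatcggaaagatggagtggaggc
lncRNA:CR44714 downstream, polypyrimidine, intergenic member, chr3L:11246083-11246202 plus strand: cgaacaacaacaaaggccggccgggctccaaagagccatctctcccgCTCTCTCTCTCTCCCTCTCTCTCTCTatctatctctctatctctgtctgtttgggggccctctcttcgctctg

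The kirre stretch lies in an annotated mdg1 retrotransposon and occurs 3 times in the 7 chromosomes that carry peaks. All 3 copies lay inside members. Since a read from one copy can be placed at another, which of the copies carried a hybrid was not tested. The copy in the intron of kirre was covered by a minus-strand member of 1226 bp, with the adenines on the listed strand. The copy in the intron of Glut1, a glucose transporter gene, was covered by a minus-strand member of 685 bp, with thymines on the listed strand. The copy on the Y chromosome, 184473 bp from the nearest transcript, was covered on both strands, by members of 1273 bp on the plus strand and 991 bp on the minus strand. The other 4 stretches occur once. The polypurine tract of the intergenic member near oc, the orthodenticle gene of head patterning, is an AG repeat that contains the GAGA factor word GAGAGAG several times over.

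The second set shows 6 members with the word CAGGTAG, the core of the Zelda binding motif, within 57 bp of their centre. It is a selection, which left out 1 chromosome arm and other members with the word as close, and it was picked after the motif counts had been seen, from members that are almost wholly single-copy and lie over no annotated mobile element or untranslated region (UTR). The capitals mark the motif, printed as CTACCTG where it lies on the strand opposite to the listed one.
Mhcl intron, antisense member, chr3R:16072259-16072338 plus strand: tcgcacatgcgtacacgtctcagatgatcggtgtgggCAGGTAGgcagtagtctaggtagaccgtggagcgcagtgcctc
lncRNA:CR43837 exon, antisense member, chrX:6997435-6997514 plus strand: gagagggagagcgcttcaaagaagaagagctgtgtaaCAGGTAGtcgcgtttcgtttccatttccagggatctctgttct
siz intron, antisense member, chr3L:21067503-21067582 minus strand: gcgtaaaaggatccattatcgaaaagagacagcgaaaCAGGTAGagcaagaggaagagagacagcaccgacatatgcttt
comm2 upstream, intergenic member, chr3L:15700897-15700976 plus strand: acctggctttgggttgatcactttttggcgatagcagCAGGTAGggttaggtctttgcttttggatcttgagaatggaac
knrl downstream, intergenic member, chr3L:20584304-20584383 minus strand: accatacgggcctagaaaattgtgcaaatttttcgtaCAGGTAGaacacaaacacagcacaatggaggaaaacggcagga
Best4 upstream, intergenic member, chr3L:15289437-15289516 minus strand: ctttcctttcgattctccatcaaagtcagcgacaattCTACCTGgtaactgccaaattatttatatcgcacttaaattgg

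A match to a short word is a description of the sequence and not a binding site. The gene knrl, a relative of the gap gene knirps, lay 12609 bp from its member, and comm2, a regulator of axon crossing at the midline, lay 938 bp from its own.

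Antisense regions held by 2–3 h embryos alone were 1015 of 16097 antisense regions, a share of 6.31% (95% interval 5.94% to 6.69%), and intergenic regions held by 2–3 h embryos alone were 1213 of 14990, a share of 8.09% (7.67% to 8.54%). Over all regions of any class the share held by 2–3 h embryos alone was 7.07%. Because these shares are what the rule selected on, they are given as a description and nothing is read from them. Embryos of 14–16 h alone held 4538 antisense and 3494 intergenic regions, and S2 cells alone held 4368 and 4659. Each member was a single peak, and the members took 9.87% of the 22581 peaks of 2–3 h embryos. Plus and minus strands were used about equally, with 506 plus and 509 minus antisense members and 593 plus and 620 minus intergenic members.

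The members were narrow peaks. Antisense members had a median width of 339 bp (quartiles 280 and 455, range 242 to 2360) and intergenic members a median of 350 bp (281 and 475, range 242 to 3206). Antisense and intergenic regions of 14–16 h embryos alone had medians of 324 and 312 bp, and those of S2 cells alone 366 and 381 bp. Regions shared by all 3 lists, which join several peaks, had medians of 651 and 621 bp. Few members were decided at the edge of the rule. A peak of another list on the same strand lay within 50 bp of 4 antisense and 2 intergenic members and within 100 bp of 9 and 11, and the median distance to such a peak was 1890 bp for antisense and 2491 bp for intergenic members. On the other side of the edge, 3 of 5528 shared antisense regions and 6 of 5008 shared intergenic regions owed their sharing to an overlap of 50 bp or less. A transcript on the member's own strand came within 100 bp of 4 antisense and 7 intergenic members, and 6 of 1441 sense regions of 2–3 h embryos alone touched their transcript by 50 bp or less.

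The members separated into single-copy and repeated sequence. Every 50-base stretch of a region was looked up in the whole assembly on both strands, and a region is called single-copy below where at least 90% of its stretches occur once. This held for 750 of 1015 antisense members (73.9%, 71.1% to 76.5%) and 374 of 1213 intergenic members (30.8%, 28.3% to 33.5%). The same share was 93.3% for antisense and 81.3% for intergenic regions of 14–16 h embryos alone, and 88.8% and 70.7% for those of S2 cells alone. At the other extreme, 515 intergenic and 149 antisense members held no single-copy stretch at all. Over the assembly, 84.7% of stretches occurred once. No filter on reads that map to several places is stated in the sources used here, and a read from one copy can be placed at another, so the position of a hybrid in repeated sequence was not tested. Shares among single-copy regions are given below for position, mobile elements, introns, facing peaks, GC content, tracts and motifs. Skews, neighbouring members, partner regions and host genes are given over all members.

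Intergenic members crowded into the DNA next to centromeres and onto the Y chromosome. The Y chromosome carried 190 intergenic members, or 51.8 per Mb, and 21 antisense members, or 5.73 per Mb. The other chromosomes carried between 4.38 (2L) and 11.3 (3L) intergenic and between 5.40 (2L) and 10.1 (X) antisense members per Mb. Members made up 41.9% of the 504 antisense and intergenic regions of any list on Y, beside 20.1% of 134 on the fourth chromosome and 3.77% of 6095 on 2L. The 1 Mb bins with the most members were 2 to 3 Mb on Y with 63, 0 to 1 Mb on Y with 58, 22 to 23 Mb on X with 53 and 27 to 28 Mb on 3L with 48, against a median of 13.0 over the 135 bins.

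In the 5 Mb nearest the centromere of each of the 5 large arms, which make up 18.9% of those arms, lay 493 of 1008 intergenic members (48.9%, 45.8% to 52.0%). The share was 20.8% (19.5% to 22.2%) for intergenic regions of 14–16 h embryos alone and 29.9% (28.5% to 31.2%) for those of S2 cells alone. For antisense members it was 16.5% (14.3% to 18.9%), beside 9.69% and 17.2%. Among members with under 50% single-copy sequence the proximal share was 72.3% of intergenic and 46.3% of antisense ones. Among single-copy regions the proximal share was 8.09% (5.72% to 11.3%) of intergenic members, against 9.79% (8.75% to 10.9%) for 14–16 h embryos alone and 14.3% (13.1% to 15.5%) for S2 cells alone. No single-copy member lay on Y.

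**Figure D1:**
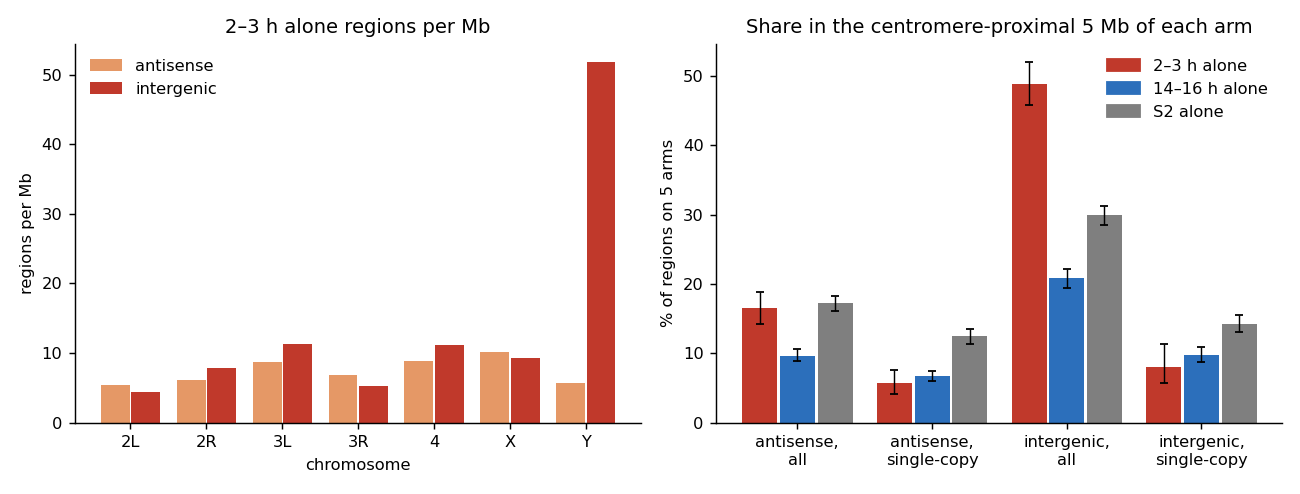
The left panel gives the members per Mb on each chromosome, as bars for antisense and intergenic members, and the intergenic bar on Y stands at 51.8 per Mb. The right panel gives the percentage of the regions of the 5 arms that lie in the proximal 5 Mb, for all regions and for single-copy regions of each list alone, with 95% Wilson intervals; the intergenic share of 2–3 h embryos alone is 48.9% over all regions and 8.09% over single-copy ones.

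Mobile elements were common among the members. An annotated mobile element was overlapped by 241 of 1213 intergenic members (19.9%, 17.7% to 22.2%) and 100 of 1015 antisense members (9.85%, 8.17% to 11.8%). For 14–16 h embryos alone the shares were 8.79% of intergenic and 4.30% of antisense regions, and for S2 cells alone 13.6% and 7.51%. The elements were of different kinds. Members most often overlapped the non-LTR retrotransposons Doc (30 members) and F (29), then the LTR retrotransposons invader1 (29) and Dm88 (27), then H (27), mdg1 (20) and R1A1 (19), the last of which inserts into ribosomal DNA. In regions of 14–16 h embryos alone the leading elements were roo (112) and INE-1 (74), and in regions of S2 cells alone 297 (158), copia (89) and blood (73). At least 50% of the sequence was in lower case, the mark of repeats in the reference, for 41.5% of intergenic and 16.8% of antisense members. Among single-copy regions few overlapped an element, namely 2.67% (1.46% to 4.85%) of intergenic and 0.667% (0.285% to 1.55%) of antisense members, against 3.45% and 1.32% for 14–16 h embryos alone and 2.64% and 1.52% for S2 cells alone.

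Several repeated gene clusters known from germline and nucleolar biology lay over members or were their nearest transcripts at any distance. These sets were drawn up after the values had been seen. The Suppressor of Stellate repeats, Su(Ste), source of the small RNAs that silence the Stellate genes in the male germline, lay over 11 antisense members and were the nearest transcripts of 72 intergenic ones, together 83 members or 3.73%. Their counts were 20 regions (0.249%) for 14–16 h embryos alone and 10 (0.111%) for S2 cells alone. Ribosomal RNA genes and pseudogenes, with the microRNA genes of their spacer, were over or nearest to 51 members (2.29%), 41 regions of 14–16 h embryos alone (0.510%) and 15 of S2 cells alone (0.166%). A set of 12 protein-coding genes of Y, among them male fertility factors such as kl-3 and kl-5, was over or nearest to 95 members (4.26%), 54 regions of 14–16 h embryos alone (0.672%) and 46 of S2 cells alone (0.510%). The locus lncRNA:flam (flamenco), a major source of small RNAs against retrotransposons in the ovary, was over or nearest to 26 members, 14 regions of 14–16 h embryos alone and 18 of S2 cells alone. A further set, of 115 histone genes, was over or nearest to fewer members than regions of either other list. Its counts were 7 members (0.314%), 10 regions of 14–16 h embryos alone (0.125%) and 8 of S2 cells alone (0.0886%). The median member of each of these sets was between 0% and 2.48% single-copy, so each count rests mostly on sequence that recurs in the assembly. A nearest transcript could also be far away. The median gap was 81805 bp for the 20 intergenic members nearest to Su(Ste):CR42424 and 41186 bp for the 21 nearest to lncRNA:flam.

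Most of the widest members lay in repeated sequence. The widest antisense member was chrX:22522885-22525244 on the minus strand, 2360 bp in an intron of CG17600 and over FB and NOF elements, with 93.6% of it in lower case. The member at chrX:23239465-23240997 on the minus strand, 1533 bp, lay over the ribosomal pseudogene 28SrRNA-Psi:CR40741 and an R1A1 element. At chr3R:21766303-21767800 on the minus strand, 1498 bp in an intron of CG42335 overlapped mdg1. A pair of wide members was free of annotated elements. The one at chr2R:14193643-14195405 on the minus strand, 1763 bp over an exon of Sdb, was 2.04% single-copy. The one at chrX:16210578-16212110 on the plus strand, 1533 bp over the 3′ UTR of disco, a zinc finger gene of head and appendage development, was 100% single-copy. Every one of the 5 faced at least 1 peak of 2–3 h embryos on the other strand and no peak of the other lists.

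The widest intergenic members were a pair that faced each other across the strands of an invader4 element, 3206 bp on the minus strand (chr2R:25258553-25261758) and 2772 bp on the plus strand (chr2R:25258584-25261355), about 3.2 kb upstream of CG9380. The third, chrY:955606-957922 on the minus strand, was 2317 bp wide, lay 1292 bp upstream of Su(Ste):CR40820 and was 98.5% lower case. The others were chr3R:245917-247771 on the plus strand, 1855 bp wide, and chr2R:3306247-3308063 on the minus strand, 1817 bp wide and 55793 bp from CG41242. The 5 members farthest from any transcript all lay at the centromeric end of 3R, between 346869 and 458188 bp before the start of Myo81F. The farthest of them, chr3R:108583-108887 on the minus strand, was 305 bp wide, had a GC content of 55.7%, and faced no peak.

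Intergenic members lay far from genes. The median gap to the nearest transcript on either strand was 11435 bp (quartiles 3045 and 54702), beside 3458 bp for 14–16 h embryos alone and 4375 bp for S2 cells alone. Within 1 kb of a transcript lay 120 of 1213 intergenic members (9.89%, 8.34% to 11.7%), against 22.0% and 17.3%. These 120 were spread over all 4 arrangements, 28 upstream on the strand of the gene, 41 upstream on the opposite strand, 21 downstream on the same strand and 30 downstream on the opposite strand. Single-copy intergenic members had a median gap of 2809 bp and 24.3% of them (20.3% to 28.9%) lay within 1 kb, against 2708 bp and 25.9% for 14–16 h embryos alone and 3096 bp and 22.1% for S2 cells alone. For intergenic members with under 50% single-copy sequence the median gap was 29623 bp. The genes nearest to the most intergenic members were Myo81F with 33, CG40813 and FDY with 29 each, and Ppr-Y with 24.

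**Figure D2:**
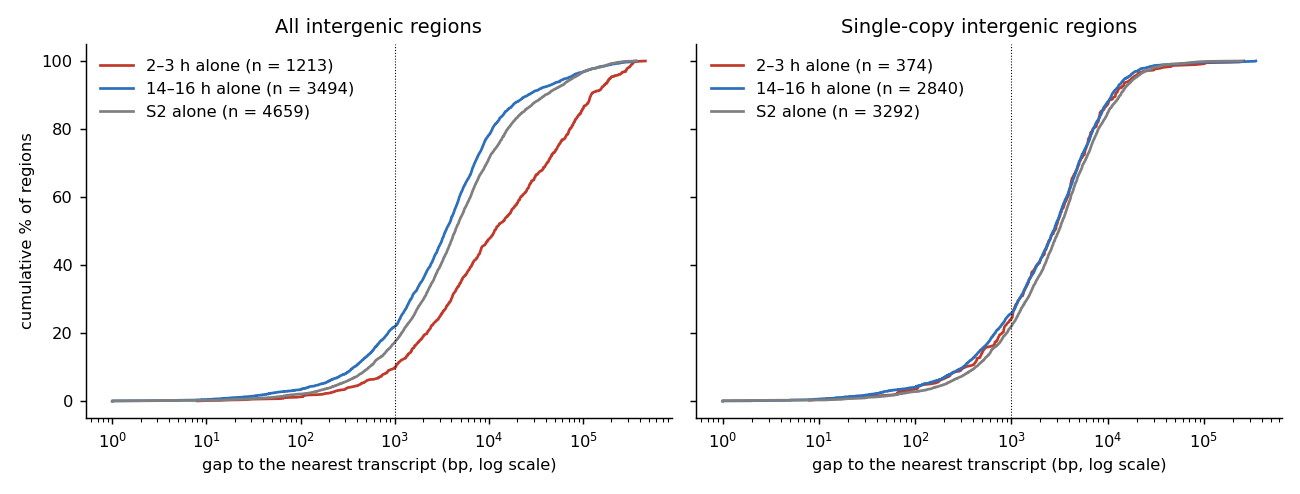
Cumulative percentage of intergenic regions against the gap to the nearest transcript in bp on a log axis, for each list alone, with a dotted line at 1 kb. Over all regions the curve of 2–3 h embryos alone runs to the right of the other 2, with a median of 11435 bp, and over single-copy regions the 3 curves lie together, with medians between 2708 and 3096 bp.

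Antisense members sat mostly in introns of long genes. The centre lay in an intron of the transcript on the other strand for 734 of 1015 (72.3%, 69.5% to 75.0%), in an exon outside annotated UTRs for 159 (15.7%, 13.6% to 18.0%), in a 5′ UTR for 50 (4.93%), in a 3′ UTR for 43 (4.24%) and just outside the transcript for 29 (2.86%). Antisense regions of 14–16 h embryos alone were intronic in 78.9% and exonic in 4.25% (3.70% to 4.88%), with 9.06% in 3′ UTRs, and those of S2 cells alone were intronic in 78.3% and exonic in 12.1%. Among single-copy regions the intronic share was 71.9% of antisense members, against 78.1% for 14–16 h embryos alone and 76.4% for S2 cells alone. Within 500 bp of a transcription start of the host lay 115 members (11.3%, 9.52% to 13.4%), beside 9.94% and 8.29%, and within 500 bp of a transcript end 72 members (7.09%), beside 9.41% and 6.96%. Neither end of the host set the members apart from both other lists, since the start interval of 9.52% to 13.4% includes the value of 14–16 h embryos alone and the end interval of 5.67% to 8.84% that of S2 cells alone.

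The 1015 antisense members lay over 691 of 17489 genes (3.95%), which had a median length of 20688 bp, against 1726 bp over all genes. A single member was found over 521 of these genes and 2 or more over 170. The host genes also carried sense peaks. In 2–3 h embryos 84.1% of them (81.2% to 86.6%) overlapped a peak on their own strand, in 14–16 h embryos 73.7% and in S2 cells 67.9%, where the shares over all genes were 23.7%, 22.1% and 27.3%. Host genes of antisense regions of 14–16 h embryos alone, with a median length of 15238 bp, had sense peaks in 73.1%, 86.6% and 63.7% of cases in the same order of lists. Long genes can hold more peaks of any kind, and the part of length in these shares was not tested.

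The gene with the most antisense members was Myo81F, a myosin gene of 1965857 bp at the centromeric end of 3R, with 47, all intronic. It had 69 antisense regions of 14–16 h embryos alone and 54 of S2 cells alone. Its neighbour Pzl, which encodes a channel of the Piezo kind, had 14 members, and lovit 11. Then came bru3 (9 members), an RNA-binding protein gene, kirre (8), a cell adhesion gene of myoblast fusion, olf413 (7) and Snap25 (6), a gene of synaptic vesicle fusion. The 6 members of rg, an anchor for protein kinase A, are also the 6 of CG15465, since both genes are annotated over the same dicistronic span. Antisense regions of 14–16 h embryos alone outnumbered the members at Myo81F, Pzl (17), lovit (17), bru3 (13), kirre (54) and rg (31), and were fewer at olf413 (3), Snap25 (4) and Muc14A. Antisense regions of S2 cells alone outnumbered the members at Myo81F, Pzl (30), bru3 (11) and Snap25 (11).

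Muc14A, a gene of the mucin family, was the densest of these hosts. At chrX:16009114-16061722 on the plus strand, it had 13 antisense members between positions 16012869 and 16056940, from 248 to 1340 bp wide, all in exons and none in introns. That is 24.7 members per 100 kb, against 2.39 at Myo81F. It had 0 antisense regions of 14–16 h embryos alone and 0 of S2 cells alone. On its own strand Muc14A overlapped 20 peaks in 2–3 h embryos, 0 in 14–16 h embryos and 0 in S2 cells. Of the 13 members, 11 faced a peak of 2–3 h embryos. The exons are repetitive, with a median of 0.503% single-copy stretches over the 13 members (0% to 54.5%) and 14.8% over the longest exon of 14581 bp, so how many separate places the calls stand for was not tested.

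Among genes of early development, named from lists of embryonic and tissue pathways, members were found at a few regulators of the segmentation and sex determination cascades. The background is that 6.48% of all 17489 genes had an antisense member over them or were the nearest gene of an intergenic one. Of 10 segment polarity genes, 4 did, with 7 antisense and 2 intergenic members. Naked cuticle (nkd), a feedback inhibitor of Wnt signalling, had 5 antisense members in introns, of 320 to 824 bp, and 1 intergenic member of 416 bp lying 472 bp upstream of it. The Hedgehog receptor gene ptc had 1 antisense member in an intron, inv 1 over its 5′ UTR, and wg, a Wnt ligand, was the nearest gene of a member 8.29 kb upstream. Genes of this kind are long, with a median of 10640 bp in the list, and length was not adjusted for.

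Of 8 Hox genes, which set segment identity, 3 had antisense members. The median length of the Hox genes was 30563 bp, against 1726 bp over all genes, and length was not adjusted for. Antp had 4, of 320 to 799 bp and all intronic, Ubx had 1 of 272 bp and abd-A 1 of 695 bp. Of 9 pair-rule genes, 2 had one. For run it was 263 bp wide in an intron, and for hry (hairy) 476 bp wide over an exon. Of 7 gap and terminal genes only hb, the maternal and zygotic gap gene hunchback, was reached, by an intergenic member of 412 bp lying 2.11 kb upstream on the strand of the gene. Of 19 dorsoventral genes 3 had an antisense member, namely sog, an inhibitor of Dpp signalling, ths, a ligand of the FGF receptor in mesoderm, and Doc2, a T-box factor. Of 5 cellularisation genes, short genes switched on first by the zygote, none was reached. Their median length was 1028 bp. With 6.48% of all genes reached, nothing is read from the counts of lists as small as these 5 genes or the 7 gap and terminal genes.

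Sxl, the master switch of female development, had 3 antisense members close to each other, at chrX:7080150-7080541 and chrX:7082145-7083392 in introns and chrX:7083744-7084041 over a 3′ UTR, all on the plus strand and all 100% single-copy. The middle one was 1248 bp wide and faced 1 peak of 2–3 h embryos, the first faced 1 peak of 14–16 h embryos, and the last faced 1 of each. The nearest peaks of 14–16 h embryos on the plus strand lay 537, 2532 and 4131 bp away. Dpn, another gene of the early sex determination list, was the nearest gene of an intergenic member of 254 bp upstream of it, and so 2 of 5 in that list were reached. The Zelda gene itself, zld, 1 of 3 pioneer factor genes to be reached, had 2 antisense members, 375 bp in an intron (chrX:19775578-19775952) and 645 bp over its 5′ UTR (chrX:19782716-19783360). The second faced 1 peak of 2–3 h embryos, 0 of 14–16 h embryos and 1 of S2 cells. Both were 100% single-copy.

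Genes of tissues that form later were reached as well. Of 21 neuronal adhesion and axon guidance genes, whose median length of 49917 bp is far above that of all genes, 10 were, with 19 antisense and 4 intergenic members. The teneurin genes Ten-a and Ten-m, cell surface proteins that match synaptic partners, had 5 antisense members each, and Ten-m also an intergenic one 1.25 kb upstream. Fas2, Toll-6, CadN, NetA, caps, Dscam1 and Dscam4 had 1 or 2 antisense members, Dscam3 was the nearest gene of an intergenic one and Toll-6 of 2 more. Of 13 muscle structure genes 2 were reached, Msp300, a giant nuclear envelope protein of muscle, with 3 antisense members and Tm1, a tropomyosin, with 1. That is 15.4%, beside 6.48% of all genes, in a list with a median length of 18712 bp. Length was not adjusted for in either list.

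Many members had a partner on the other strand. A peak of 2–3 h embryos on the opposite strand overlapped 391 of 1015 antisense members (38.5%, 35.6% to 41.6%) and 492 of 1213 intergenic members (40.6%, 37.8% to 43.3%), where 6092 of all 22581 peaks of 2–3 h embryos were so faced (27.0%, 26.4% to 27.6%). Peaks of 14–16 h embryos faced 9.06% of antisense and 8.82% of intergenic members, and peaks of S2 cells 13.4% and 9.65%. Regions of 14–16 h embryos alone were faced by a peak of their own list in 64.3% (antisense) and 59.8% (intergenic) and by a peak of 2–3 h embryos in 32.7% and 31.2%. Regions of S2 cells alone were faced by their own list in 23.6% and 27.8%. Over all peaks of these 2 lists the share faced by the own list was 58.8% for 14–16 h embryos and 24.9% for S2 cells. Among single-copy regions the share faced by the own list was 32.3% (29.0% to 35.7%) of antisense and 30.5% of intergenic members, against 65.0% and 61.2% for 14–16 h embryos alone and 19.7% and 19.6% for S2 cells alone. Opposite-strand peaks that cover each other by 90% were discarded, per the methods. In each of the 3 deposited lists 0 opposite-strand pairs reached that overlap, so these shares count what was left below it.

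The partners were also sorted by the lists that held them. Of the 391 faced antisense members, 208 (53.2%) faced a region of 2–3 h embryos alone, and the others faced a region shared with another list. Of the 492 faced intergenic members, 293 (59.6%) faced another member, so that these hybrids were called on both strands and in 2–3 h embryos alone. No such share is given here for other regions, so whether these partners are particular to the members was not tested. Another member on either strand lay within 5 kb of 57.5% of intergenic and 26.3% of antisense members. This takes in the facing members, which 24.2% of intergenic members had. No antisense member had one. All 391 that were faced met a sense region, as a facing region lies on the strand of the host transcript. The 57.5% and 26.3% are therefore not like for like. Whether members cluster more than other regions was not tested.

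**Figure D3:**
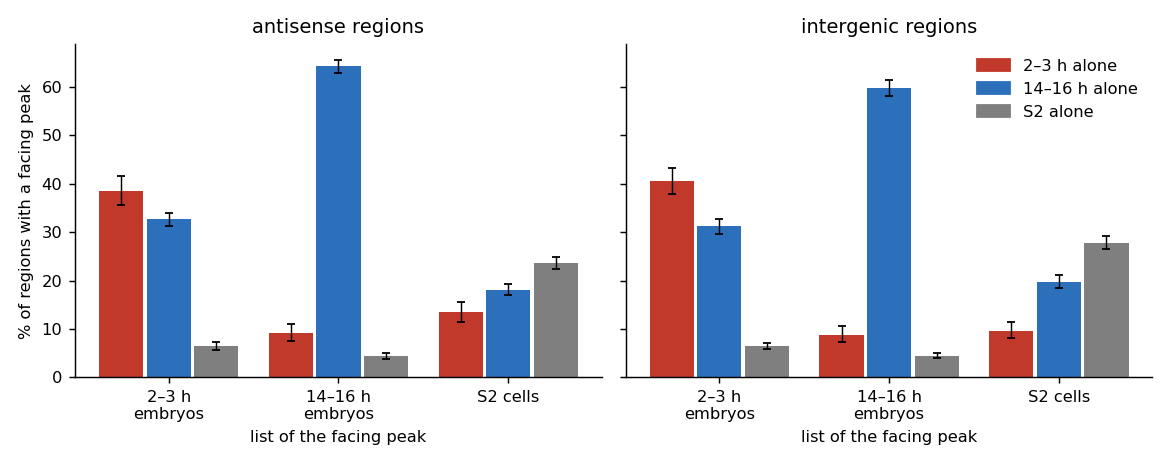
Percentage of antisense (left) and intergenic (right) regions of each list alone that overlap a peak on the opposite strand, by the list of the facing peak, with 95% Wilson intervals. For 2–3 h embryos alone the bar is highest at their own list, at 38.5% and 40.6%.

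In base composition the members stood between the other lists or near S2 cells. Their central 300 bp had a median GC content of 43.3% (antisense) and 43.0% (intergenic), against 38.7% and 39.0% for 14–16 h embryos alone and 44.3% and 43.7% for S2 cells alone, with 42.0% over all 300 bp tiles of the same chromosomes. Among single-copy regions the medians were 43.3% and 43.5% for members, 38.7% and 40% for 14–16 h embryos alone, and 45.0% in both classes for S2 cells alone. Both A over T and G over C were in excess on the listed strand, which is read as skew, the difference of the base counts divided by their sum. In 50 bp bins the mean AT skew of members reached 0.064 ± 0.012 (SEM, n = 1015 regions) near the centre of antisense and 0.092 ± 0.0094 (n = 1211, without 2 members too near a chromosome end) near that of intergenic members. The mean GC skew reached 0.090 ± 0.0095 and 0.071 ± 0.0086. For S2 cells alone the peaks were higher, with AT skew of 0.14 and 0.15 and GC skew of 0.16 and 0.15. For 14–16 h embryos alone the AT skew of antisense regions was 0.11 on one side of the centre and -0.093 on the other, while the highest GC skew was 0.020.

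**Figure D4:**
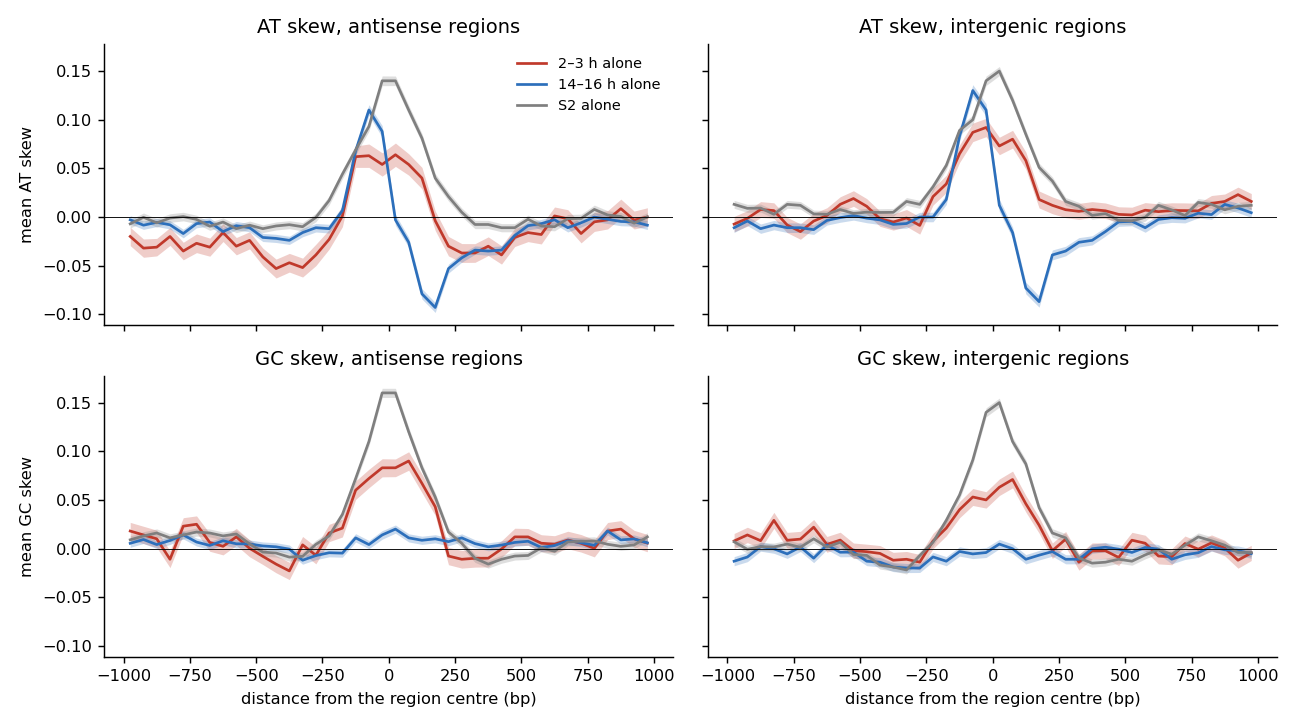
Mean AT skew (top) and GC skew (bottom) in 50 bp bins against the distance from the region centre in bp, read along the listed strand, for antisense (left) and intergenic (right) regions of each list alone; bands give the SEM over regions. Members peak near the centre in both skews, up to 0.092 and 0.090, and the AT skew of regions of 14–16 h embryos alone swings down to -0.093 on one side.

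Polyadenine tracts, which were frequent wherever a region was also called in 14–16 h embryos, were less so among the members. On the listed strand 176 of 1015 antisense members (17.3%, 15.1% to 19.8%) and 141 of 1213 intergenic members (11.6%, 9.94% to 13.6%) held one, together 14.2%. The share was 36.6% (35.5% to 37.6%) for antisense and intergenic regions of 14–16 h embryos alone, 55.6% for those shared by both embryo ages and 46.2% for those in all 3 lists. It was 12.3% for those shared by 2–3 h embryos and S2 cells and 3.71% (3.34% to 4.12%) for S2 cells alone, with 3.84% over all tiles. Absence from the list of 14–16 h embryos is part of the rule, so the difference from classes with that list is given as a description. The tracts were one-sided. Polythymine tracts were found on the listed strand of 5.25% of members, against 14.2% with polyadenine, where 14–16 h embryos alone had 27.4% and 36.6%. Polypurine tracts occurred in 15.3% of members (13.9% to 16.9%) and polypyrimidine tracts in 4.71%, with 16.3% and 12.7% for 14–16 h embryos alone, 18.3% and 3.45% for S2 cells alone, and 3.69% and 3.70% over all tiles. Shared regions held polypurine tracts more often. The share was 19.6% for both embryo ages, 26.0% for 2–3 h embryos and S2 cells and 28.9% for all 3 lists. Among single-copy members polyadenine tracts were in 21.6% of antisense and 26.2% of intergenic ones and polypurine tracts in 24.0% and 23.3%. Single-copy regions of 14–16 h embryos alone held polyadenine tracts in 37.4% and 37.2% and polypurine tracts in 17.3% and 16.5%. For single-copy regions of S2 cells alone the polyadenine shares were 3.59% and 4.07% and the polypurine shares 21.1% and 20.9%. Among members with under 50% single-copy sequence polyadenine tracts were in 5.02% of antisense and 4.57% of intergenic ones and polypurine tracts in 3.77% and 6.73%.

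The Zelda word was found in 57 of 2228 members (2.56%, 1.98% to 3.30%), that is in 31 antisense and 26 intergenic ones. It was searched as CAGGTAG on either strand of the central 300 bp. The share was 1.02% (0.823% to 1.27%) for 14–16 h embryos alone, 1.26% (1.05% to 1.51%) for S2 cells alone and 1.63% over all 300 bp tiles. Sense regions of 2–3 h embryos alone, which are not members, had 2.29%, and regions shared by 2–3 h embryos and S2 cells 2.43%, while regions shared by both embryo ages had 1.09% and those in all 3 lists 0.971%. Absence from the list of 14–16 h embryos is part of the rule here too. When that list was left out of the rule, 1.68% (1.38% to 2.03%) of the regions so chosen held the word, an interval that includes the 1.63% of tiles. With the rule as it stands, the share among single-copy regions was 2.67% (1.88% to 3.78%) of 1124 members against 1.06% and 1.17%, and among regions with a GC content of 40% to 50% it was 3.33% (2.39% to 4.61%) of members against 1.34%, 0.999% and 1.71% of tiles. Of the 57 motifs, 22 lay within 50 bp of the centre of the member. In antisense members 22 words were on the listed strand and 9 on the other, and in intergenic members 12 and 14.

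Words of the GAGA factor, a pioneer factor that binds GA repeats, were found in 202 members (9.07%, 7.94% to 10.3%), against 3.25% for 14–16 h embryos alone, 7.12% (6.61% to 7.67%) for S2 cells alone and 3.62% of tiles. Sense regions of 2–3 h embryos alone had 9.09% and regions shared by 2–3 h embryos and S2 cells 10.1%, so the share was not particular to members. Regions shared by both embryo ages had 3.88% and those in all 3 lists 4.98%. Absence from the list of 14–16 h embryos is again part of the rule. The word searched was GAGAGAG on either strand, and it can overlap a polypurine tract. Antisense members held it in 11.8% (9.98% to 14.0%) and intergenic members in 6.76%, beside 13.3% and 6.81% in regions shared by 2–3 h embryos and S2 cells. Among single-copy members the share was 13.3% (11.5% to 15.5%), against 3.31% and 7.84% (7.24% to 8.48%). The word TAATCC of Bicoid, the maternal factor of the anterior pole, was found in 6.69% of members (5.72% to 7.80%), against 8.25% for 14–16 h embryos alone and 8.64% for S2 cells alone, and in 45794 of 456591 tiles. The repeats CACACACA and AACAACAA were found in 8.21% and 10.5% of members, beside 5.83% and 6.16% of tiles. In the same order the shares were 7.91% and 9.72% for 14–16 h embryos alone and 8.78% and 8.36% for S2 cells alone. Values above the tiles were thus common to all 3 lists.

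**Figure D5:**
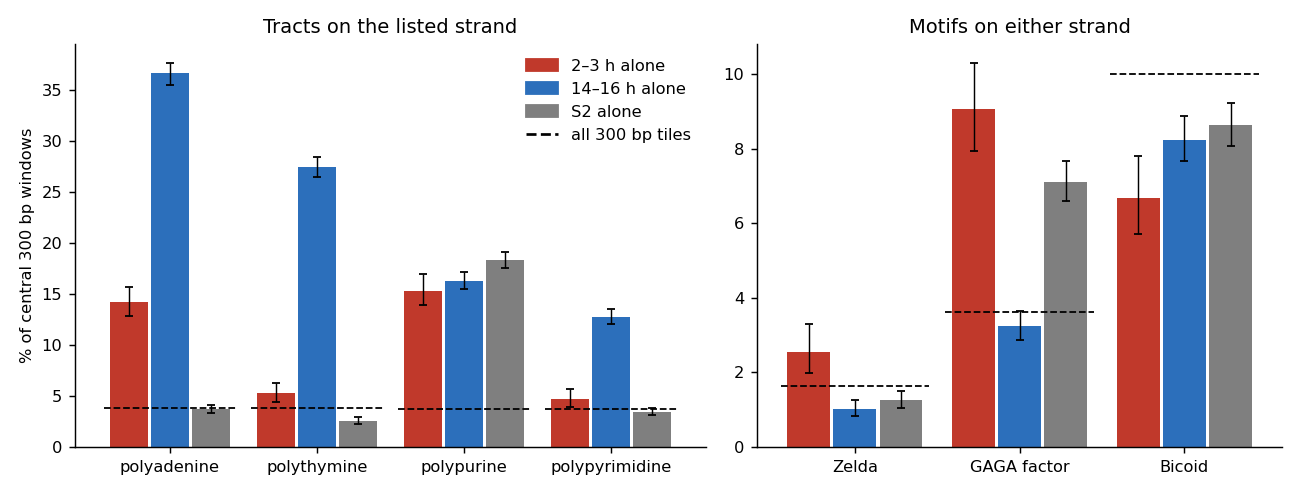
Percentage of central 300 bp windows with a tract on the listed strand (left) and with a motif on either strand (right), for antisense and intergenic regions of each list alone, with 95% Wilson intervals and a dashed line for all 300 bp tiles. The Zelda bar of 2–3 h embryos alone is at 2.56%, the other 2 at 1.02% and 1.26%.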

How the data were processed

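Peaks were taken from the 3 lists the authors deposited. Per the methods, paired reads were trimmed, aligned to dm6 with bowtie2, marked for duplicates and separated by strand, and peaks were called with MACS2 on both replicates together. The deposited values are positions, widths in bp and strands. Whether the RNase H-treated sample or the input served as control is described in more than one way in the sources used here. Starts were converted to count from 1. All peaks lay within the chromosomes of the RefSeq dm6 assembly, whose annotation (FlyBase 6.54) gave 17796 genes and 35289 transcripts. Regions were joined, classified and counted in Python 3.11.15 with NumPy 2.4.6 and SciPy 1.17.1. The program was tested on simulated data, and 10 of 10 checks passed. No test over samples was possible.

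The members, gene lists, motifs and comparisons were chosen with earlier results of these data known. Named are the 5 widest members of each class, the 5 farthest from a transcript, the 10 genes with the most antisense members, and listed genes reached by a member. Of the listed genes, 2 matched through older symbols. Alternatives changed the overlap, the joining, the annotation, the widths, the chromosomes and the lists.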

Additional observations from a re-analysis of the deposited data

How the results depend on the processing

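The deposited lists hold no heights, counts or replicates, so depth limits which weak hybrids were called and its effect cannot be measured. No paired analysis was possible because the deposited lists pool the replicates, and for the same reason no replicate was left out. Of 102 values recomputed under alternatives, 64 moved by less than their counting error (counts by less than 1.5 times). The alternatives of single-copy regions, of regions without mobile elements and of Ensembl transcripts, and all those for the Zelda motif, were chosen after seeing the data.

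The number of antisense members depended on how absence was defined. With 50% reciprocal overlap it was 1819, without the S2 list 2478 and without the 14–16 h list 3087. Intergenic members numbered 1983, 2630 and 2993 in the same order, and 374 among single-copy regions. The share of antisense members facing a 2–3 h peak was 32.9% with peaks wider than the median of their list, 28.8% without the S2 list, 33.4% without the 14–16 h list, 25.3% where the facing peak had to cover 50% of the member and 32.3% among single-copy regions. The intronic share was 76.4% with reciprocal overlap, 78.6% with wide peaks, 77.1% without the S2 list and 79.8% without the 14–16 h list.

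Intergenic members within 1 kb of a transcript were 13.7% by region centre, 7.72% with protein-coding mRNA transcripts, 11.9% with wide peaks, 12.3% without the S2 list, 14.7% without the 14–16 h list, 24.3% among single-copy regions and 16.6% with Ensembl transcripts, and 5.85% lay within 500 bp. The median GC content was 42.0% with wide peaks, 44.0% without the S2 list and 41.0% without the 14–16 h list. Polyadenine tracts were in 18.3% with reciprocal overlap, 23.2% with wide peaks, 41.5% without the 14–16 h list, 11.1% in a 200 bp window and 23.1% among single-copy regions. Polypurine tracts were in 17.2% with reciprocal overlap, 22.0% without the S2 list, 18.5% without the 14–16 h list, 11.1% in a 200 bp window and 23.8% among single-copy regions. The Zelda motif was in 1.68% without the 14–16 h list, and its other 10 alternatives stayed within counting error. The causes of these moves were not tested.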
